A study of Mus musculus with 18 samples.

Results

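The 10 genes described here encode CC chemokines, small secreted proteins with a pair of adjacent cysteines that attract leukocytes through G protein-coupled receptors. They are the rows of the count table for Ccl2, Ccl3, Ccl4, Ccl5, Ccl6, Ccl7, Ccl9, Ccl17, Ccl22 and Ccl24, which is 10 of the 16314 genes of the table. Of these, 9 passed the filter on low counts and were tested among 12021 genes, and Ccl17 did not pass it.

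Bulk RNA-seq measured mRNA in bone marrow-derived macrophages (BMDMs), macrophages grown from marrow with the growth factor M-CSF. The marrow came from the femora of Prep-/- mice and of Prep+/- littermates on a C57BL6/J background, and was cultured for 7 days with 50 ng/ml M-CSF. Prep encodes prolyl endopeptidase (PREP), a serine peptidase that cleaves short peptides after proline. The study asked how its loss changes resting and activated macrophages. The 6 groups were Prep+/- M0 and Prep-/- M0, which received no treatment, Prep+/- M1 and Prep-/- M1, which received 50 ng/ml LPS for 24 h, and Prep+/- M2 and Prep-/- M2, which received IL-4 and IL-13, each at 20 ng/ml, also for 24 h. Each group had 3 libraries, 18 in all. The reference genotype was heterozygous in every comparison, and no wild-type group is among the libraries. The sources used here do not tie a library to a single mouse, so the p-values measure the spread between these libraries.

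LPS is sensed by TLR4 and acts through NF-kappaB and through a secondary wave of type I interferon. IL-4 and IL-13 act through receptors that activate the transcription factor STAT6. In macrophages, LPS is known to raise the inflammatory ligands of CCR1 and CCR2, whereas IL-4 is known to raise the ligands of CCR4 and of CCR3. Ccl6 and Ccl9 are rodent ligands of CCR1 that macrophages also make at rest.

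The libraries held 19068237 to 22598279 counts. The normalized level of Prep was 26.0 to 42.5 CPM, which are counts scaled to the same library size, in the 9 Prep+/- libraries and 1.48 to 3.22 CPM in the 9 Prep-/- libraries. Lyz2 was the largest of the 8 listed macrophage markers in every library, at 6501 to 39295 CPM, and each other marker was at most 5520 CPM. All 8 were in the table, and their sum was 10027 to 48180 CPM. It differed between genotypes without overlap in every state: 19002 to 22408 CPM in Prep+/- M0 against 30385 to 48180 CPM in Prep-/- M0, 45757 to 47208 against 31000 to 37042 CPM in M1, and 10027 to 12203 against 13889 to 19565 CPM in M2. The sum of 6 dendritic cell markers was at most 2.83 CPM, that of the 2 listed T and NK cell markers in the table at most 0.237 CPM, and that of 6 granulocyte precursor markers at most 108 CPM, almost all of it S100a8 and S100a9. The sum of 4 eosinophil markers was 2.55 to 32.2 CPM, most of it Ccr3, with Epx at most 0.0509 CPM. The mast cell and basophil markers reached at most 0.0802 CPM, the 3 B cell markers held by the table summed to at most 11.5 CPM, and 5 stromal markers to at most 21.2 CPM. In bulk RNA, fewer cells of a type and less RNA per cell cannot be told apart. Prep-/- M2 replicate 3 stood apart from the other libraries of its group: a chi-square per degree of freedom between the replicates' counts was 12.1 for replicates 1 and 2, and 111 for each pair with replicate 3. Prep-/- M0 replicate 3 also differed from its group, with 112 and 120 against 35.2 for the other pair. Results that rest on Prep-/- M2 replicate 3 are given with and without it.

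The members lie in 4 places in the GRCm39 build, as annotated by GENCODE. Ccl2 (chr11:81926397-81928279, plus strand) and Ccl7 (chr11:81936532-81938351, plus strand) are 8.3 kb apart. The other group on chromosome 11 holds Ccl5 (chr11:83416602-83425942, minus strand), Ccl9 (chr11:83463745-83473161, minus strand), Ccl6 (chr11:83478708-83483913, minus strand), Ccl3 (chr11:83538670-83540191, minus strand) and Ccl4 (chr11:83553383-83555509, plus strand), with 5.5 kb between Ccl9 and Ccl6. Ccl22 (chr8:95471226-95478327, plus strand) and Ccl17 (chr8:95534358-95538664, plus strand) are 56.0 kb apart, and Ccl24 (chr5:135598668-135601905, minus strand) is alone. Annotated lncRNA genes on the opposite strand overlap Ccl3, Ccl5, Ccl6 and Ccl9. How the counting treated strand is not given in the sources used here, so reads of these partners may be included.

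RefSeq promoter sequence was at hand for Ccl3, Ccl6, Ccl9, Ccl17 and Ccl22, and none is shown for Ccl2, Ccl4, Ccl5, Ccl7 and Ccl24. The windows are the 250 bases upstream of the RefSeq start (RefSeq, GRCm38.p6), each of which matched GRCm39 exactly at 1 place. The 4 below are shown because Ccl6 and Ccl9 are neighbours whose response to LPS differed by genotype, and Ccl17 and Ccl22 are neighbours in the pair of ligands of CCR4. Bases in annotated exons are left out. The Ccl3 window lies wholly in an exon of the opposite-strand lncRNA and is not shown. Capitals mark matches to the motifs searched on either strand: NF-kappaB, STAT6 (TTC, 4 bases, GAA), STAT (TTC, 3 bases, GAA), PU.1 (GAGGAA) and ISRE (GAAA, 2 bases, GAAA). The sequences, each 5′ to 3′ on the strand of its gene, are Ccl6 at chr11:83483914-83484163, Ccl9 at chr11:83469468-83469712, Ccl17 at chr8:95536831-95537074 and Ccl22 at chr8:95472062-95472217, all in GRCm39.
Ccl6: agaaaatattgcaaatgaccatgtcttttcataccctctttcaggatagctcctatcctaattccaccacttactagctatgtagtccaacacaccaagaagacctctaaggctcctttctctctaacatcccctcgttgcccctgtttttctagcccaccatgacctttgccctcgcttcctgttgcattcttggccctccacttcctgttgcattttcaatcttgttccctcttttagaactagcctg
Ccl9: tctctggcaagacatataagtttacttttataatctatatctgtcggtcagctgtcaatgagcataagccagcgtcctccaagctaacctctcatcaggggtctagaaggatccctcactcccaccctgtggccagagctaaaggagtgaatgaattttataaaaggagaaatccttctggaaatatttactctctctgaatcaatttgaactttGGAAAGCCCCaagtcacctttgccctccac
Ccl17: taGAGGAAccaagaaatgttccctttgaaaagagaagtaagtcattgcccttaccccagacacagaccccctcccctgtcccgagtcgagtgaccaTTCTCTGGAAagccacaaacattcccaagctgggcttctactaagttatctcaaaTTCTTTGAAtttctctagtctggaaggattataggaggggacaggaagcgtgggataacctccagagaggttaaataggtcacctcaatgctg
Ccl22: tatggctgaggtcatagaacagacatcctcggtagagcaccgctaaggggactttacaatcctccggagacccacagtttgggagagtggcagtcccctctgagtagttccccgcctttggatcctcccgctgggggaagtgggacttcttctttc
The Ccl9 window held an NF-kappaB match that began 35 bases upstream of the RefSeq start. The Ccl17 window held a PU.1 match at 248 bases, a STAT6 match at 154 bases and a STAT match at 99 bases, and the Ccl6 and Ccl22 windows held none of the 5 motifs. Of all 32851 RefSeq promoter windows of that length, 3.9% held the NF-kappaB motif, 5.9% STAT6, 7.0% STAT, 23.3% PU.1 and 3.0% ISRE. A match describes letters, not binding. The RefSeq starts of Ccl9, Ccl17 and Ccl22 lie inside the GENCODE genes, downstream of the outermost annotated start.

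The LPS-induced members, defined as called higher in M1 against M0 in Prep+/- BMDMs, were Ccl2, Ccl3, Ccl4, Ccl5, Ccl6, Ccl7 and Ccl9. The IL-4-induced members, called higher in M2 against M0 in Prep+/- BMDMs, were Ccl6, Ccl7, Ccl22 and Ccl24, so that Ccl6 and Ccl7 fell in both classes. A gene was called where its fold change was over 1.5 and edgeR's quasi-likelihood test gave an adjusted p below 0.05. In M1 against M0 in Prep+/-, 7 of 9 tested members were called higher and 1 lower, beside 16.7% and 20.9% of all genes tested. In M2 against M0 in Prep+/-, 4 were called higher and 0 lower, beside 6.09% and 6.77% of all genes. At an unadjusted p under 0.05, edgeR had 6 higher and 0 lower there, and DESeq2 called 4 higher and 0 lower. The shares of all genes under these criteria are not given here. The counts of the main edgeR test define the classes and are a description. The Prep-/- libraries were not used for the classes, and in them M1 against M0 called 5 members higher and 2 lower, beside 20.9% and 21% of all genes. M2 against M0 in Prep-/- called 6 members higher and 1 lower, beside 14.7% and 15.5% of all genes. Without Prep-/- M2 replicate 3 it called 6 higher and 0 lower, and the shares of all genes in that fit are not given here. The value of Ccl5, the lower member, was then -1.20 (edgeR adjusted p = 0.117). Within a genotype the M1 and the M2 comparison share their M0 libraries.

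**Figure D1:**
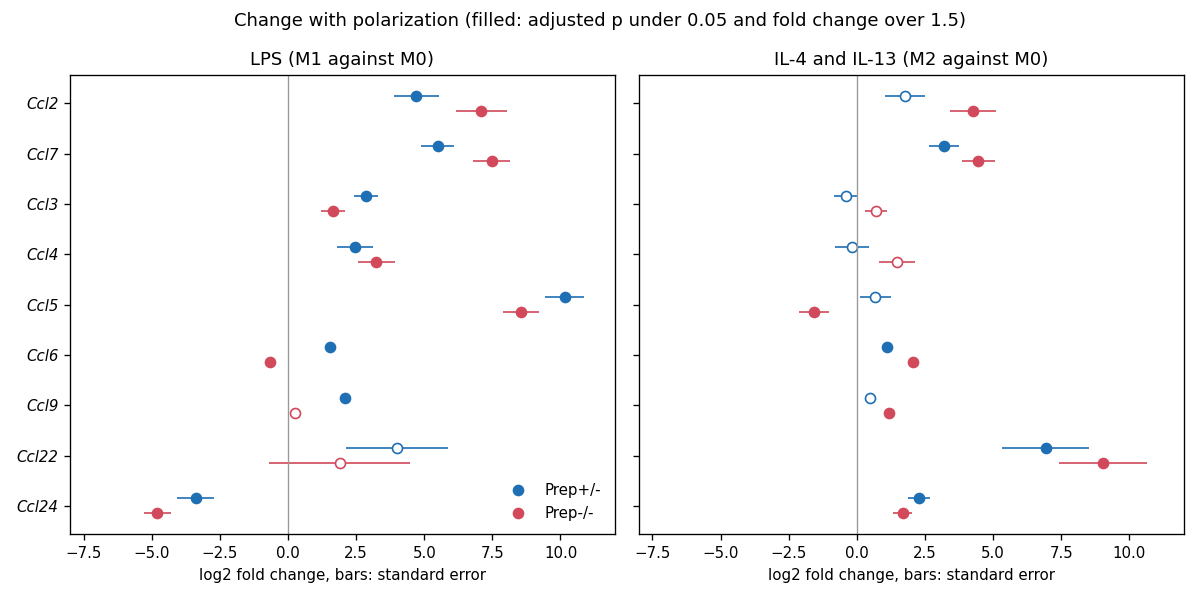
Log2 fold change of the 9 tested members in M1 against M0 (left) and M2 against M0 (right), in Prep+/- (blue) and Prep-/- (red). Bars are standard errors and filled points are called. Ccl5 lies farthest right in M1, at 10.16 and 8.55, Ccl22 farthest right in M2, at 6.93 and 9.03, and Ccl24 lies left of 0 in M1 and right of it in M2 in both genotypes.

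Per exon length, the mix of members changed with state. The levels of the 10 members, as reads scaled to exon length and library size (RPKM), summed to 674 to 899 in Prep+/- M0, 10339 to 13783 in Prep+/- M1 and 1367 to 2326 in Prep+/- M2. In Prep-/- BMDMs the sums were 604 to 898 in M0, 5322 to 7822 in M1 and 1716 to 2666 in M2. The sums of M1 did not overlap between genotypes, and those of M0 and M2 did. Ccl9 led in M0 of both genotypes, at 39.4% to 56.8% of the sum in Prep+/- and 60.2% to 65.9% in Prep-/-. Ccl5 led in M1 of both, at 26.8% to 30.4% in Prep+/- and 46.6% to 59.3% in Prep-/-. These shares use the union exon length and depend on that choice. By the longest transcript, the mean RPKM of Ccl5 was 5433 instead of 3534 in Prep+/- M1. In Prep-/- M1 it was 5466 instead of 3556, and Ccl5 still ranked highest in both. In M2, Ccl7 ranked highest by mean RPKM in Prep+/- (625 ± 208, SD, n = 3) and Ccl9 in Prep-/- (1063 ± 36.1). Ccl9 was close behind in Prep+/- M2 (532 ± 36.6), and led in replicate 2, at 36.4% of the sum against 29.6% for Ccl7.

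**Figure D2:**
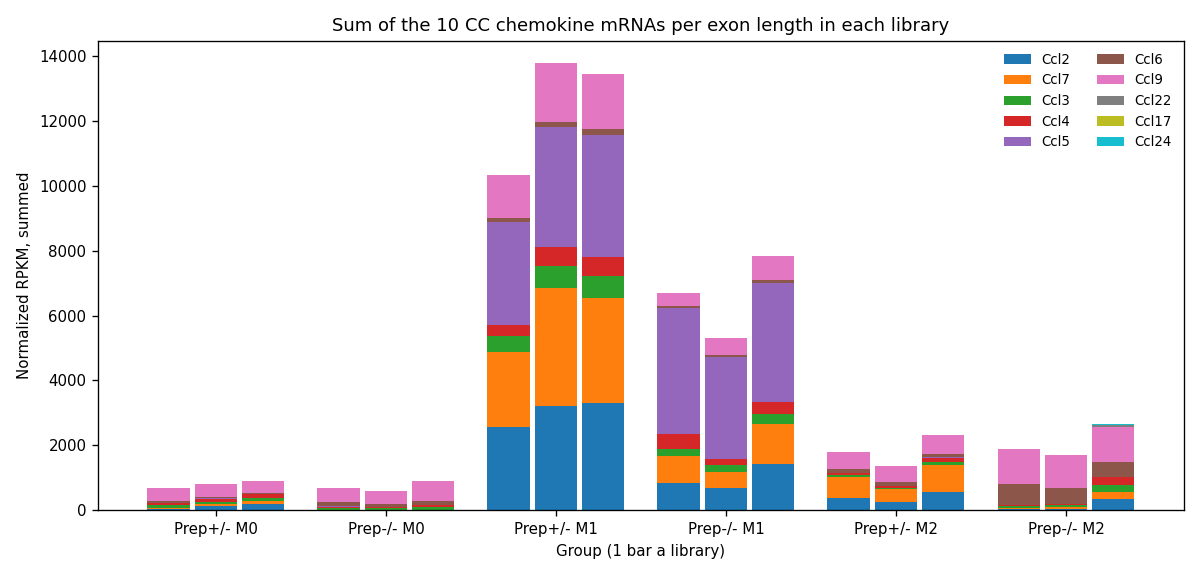
Normalized RPKM of the 10 members stacked in each of the 18 libraries, 3 bars a group. The 3 Prep+/- M1 bars reach 10339 to 13783 RPKM and the 3 Prep-/- M1 bars 5322 to 7822 RPKM.

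Ccl2 and Ccl7 attract monocytes through CCR2. Both were far lower in resting Prep-/- BMDMs and rose with LPS in both genotypes. Ccl2 in Prep+/- BMDMs was at 52.7, 134 and 210 CPM in M0, 2906, 3658 and 3776 CPM in M1, and 426, 274 and 656 CPM in M2. Ccl2 in Prep-/- BMDMs was at 9.86, 5.23 and 9.37 CPM in M0, 952, 775 and 1624 CPM in M1, and 32.5, 36.6 and 399 CPM in M2. The genotypes did not overlap in M0 or M1, and in M2 Prep-/- replicate 3 lay among the Prep+/- libraries while the other 2 lay well below. Between genotypes, Ccl2 was lower in Prep-/- M0 by a log2 fold change of -4.02 ± 0.82 (SE; edgeR adjusted p = 7.86e-04). In M1 the value was -1.63 (adjusted p = 0.0890) and in M2 -1.53 (0.136), which did not pass. Without Prep-/- M2 replicate 3, the M2 value was -3.70 and passed (8.74e-05), and blocking on the replicate number in the fit of all libraries gave -2.04 (0.0196). The M1 value passed in a fit of only those 6 libraries (-1.64, 6.85e-04).

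Ccl2 rose with LPS by 4.70 ± 0.83 on the log2 scale in Prep+/- (edgeR adjusted p = 1.46e-04) and by 7.10 ± 0.94 in Prep-/- (7.67e-06). The difference of these changes between genotypes was 2.40 and did not pass (adjusted p = 0.102), though it did in a fit of only the 12 libraries compared (2.36, 0.0121). With IL-4 and IL-13 the change was 1.77 in Prep+/- (0.108), short of the threshold although the 3 M2 libraries lay above all 3 M0 libraries, and it passed in a fit of only these 6 libraries (1.78, 0.0111). In Prep-/- BMDMs Ccl2 rose by 4.26 ± 0.83 (5.65e-04), and by 2.08 (0.00239) without Prep-/- M2 replicate 3. The difference of these changes between genotypes was 2.49 and did not pass (edgeR adjusted p = 0.143), and was 0.32 at its lowest with 1 library left out.

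Ccl7, the neighbour of Ccl2, followed it closely. Ccl7 in Prep+/- BMDMs was at 24.7, 52.9 and 86.8 CPM in M0, 1881, 2936 and 2607 CPM in M1, and 525, 326 and 660 CPM in M2. Ccl7 in Prep-/- BMDMs was at 4.88, 2.13 and 4.75 CPM in M0, 673, 410 and 1004 CPM in M1, and 38.6, 51.4 and 167 CPM in M2. The Prep-/- libraries lay below all Prep+/- libraries of the same state in all 3 states. Ccl7 was lower in Prep-/- by -3.81 ± 0.60 in M0 (edgeR adjusted p = 9.20e-05), -1.83 ± 0.52 in M1 (0.0128) and -2.55 ± 0.54 in M2 (0.00242). Of the 9 tested members it was the only one called lower in all 3 states. Leaving out Prep-/- M1 replicate 2 ended the M1 call (-1.57, 0.0522), and the M2 value was -3.48 without Prep-/- M2 replicate 3.

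Ccl7 rose with LPS by 5.50 ± 0.61 in Prep+/- (edgeR adjusted p = 1.29e-06) and by 7.48 ± 0.69 in Prep-/- (1.62e-07). The difference between genotypes was 1.98 (0.0676) and did not pass, though it did in a fit of only the 12 libraries compared (1.95, 0.0362) and without Prep+/- M0 replicate 1 (2.31, 0.0319). Unlike Ccl2, Ccl7 was also called with IL-4 and IL-13 in Prep+/-, by 3.20 ± 0.55 (5.39e-04), and in Prep-/- by 4.46 ± 0.61 (2.31e-05), or 3.51 without Prep-/- M2 replicate 3. The difference of these changes between genotypes was 1.26 and did not pass (edgeR adjusted p = 0.316). The difference of Ccl2 from Ccl7 in M2 was not tested. Over the 18 libraries Ccl7 was the gene most like Ccl2 of all those tested, with a Pearson r of 0.982 on log2 CPM, as a description over libraries that share groups.

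Ccl3 and Ccl4, inflammatory chemokines that attract monocytes and T cells, rose with LPS in both genotypes. Ccl3 in Prep+/- BMDMs was at 61.2, 64.0 and 71.5 CPM in M0, 366, 525 and 531 CPM in M1, and 36.1, 34.2 and 78.0 CPM in M2. Ccl3 in Prep-/- BMDMs was at 52.5, 49.1 and 68.4 CPM in M0, 168, 149 and 218 CPM in M1, and 45.7, 48.8 and 182 CPM in M2. The genotypes overlapped in M0 and M2 and were apart in M1. The rise with LPS was 2.85 ± 0.44 in Prep+/- (edgeR adjusted p = 4.51e-05) and 1.65 ± 0.43 in Prep-/- (0.00337), and their difference was -1.20 (0.147), which passed in a fit of only the 12 libraries compared (-1.23, 0.00481). In M1 Ccl3 was lower in Prep-/- by -1.41 ± 0.42 (0.0164). That call was lost without Prep-/- M1 replicate 1 (0.0613) or 2 (0.0558) or Prep+/- M1 replicate 2 (0.0506).

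Ccl3 did not pass with IL-4 and IL-13, at -0.41 in Prep+/- and 0.70 in Prep-/- (edgeR adjusted p = 0.550 and 0.189). Between genotypes in M2 it was at 0.90 (0.130), and at -0.05 without Prep-/- M2 replicate 3, so that the sign rested on that library. In the fit of only the M2 libraries with the block, the value was 0.70 and passed (0.0318). A stretch of 178 bases of the Ccl3 transcript matched 1 other gene at 97.8% identity. Some reads of Ccl3 may therefore have had another possible place.

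Ccl4 lies 13.2 kb from Ccl3. Ccl4 in Prep+/- BMDMs was at 51.5, 64.6 and 72.8 CPM in M0, 252, 395 and 395 CPM in M1, and 45.3, 35.1 and 88.2 CPM in M2. Ccl4 in Prep-/- BMDMs was at 16.2, 16.7 and 44.1 CPM in M0, 322, 133 and 272 CPM in M1, and 21.2, 23.3 and 168 CPM in M2. The Prep-/- M0 libraries were below the Prep+/- M0 libraries, and M1 and M2 overlapped. Ccl4 rose with LPS by 2.46 ± 0.66 in Prep+/- (edgeR adjusted p = 0.00471) and by 3.24 ± 0.68 in Prep-/- (7.01e-04), or 3.85 without Prep-/- M0 replicate 3. With IL-4 and IL-13 it was at -0.17 (0.889) and 1.47 (0.0760). The latter was -0.23 (0.739) without Prep-/- M2 replicate 3, and passed without Prep-/- M0 replicate 3 (2.09), Prep-/- M2 replicate 1 (1.86) or Prep-/- M2 replicate 2 (1.84). Between genotypes Ccl4 was at -1.30 (M0, 0.107), -0.52 (M1, 0.535) and 0.34 (M2, 0.736). The M0 value passed without Prep-/- M0 replicate 3 (-1.95, 0.0353), and the M2 value turned to -1.32 and passed (0.0427) without Prep-/- M2 replicate 3.

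Ccl5, a ligand of CCR1 and CCR3 that is induced by NF-kappaB and interferon, showed the largest rise with LPS among the tested members in both genotypes. Ccl5 in Prep+/- BMDMs was at 4.06, 3.20 and 2.28 CPM in M0, 3233, 3800 and 3854 CPM in M1, and 5.03, 4.91 and 5.31 CPM in M2. Ccl5 in Prep-/- BMDMs was at 19.2, 7.58 and 2.54 CPM in M0, 3975, 3238 and 3741 CPM in M1, and 6.74, 1.70 and 1.39 CPM in M2. The genotypes overlapped in all 3 states. The rise with LPS was 10.16 ± 0.72 in Prep+/- (edgeR adjusted p = 8.59e-09), a fold change of 1144, and 8.55 ± 0.67 in Prep-/- (2.63e-08), a fold change of 374. The Prep-/- value was 9.49 without Prep-/- M0 replicate 1. The difference between these changes was -1.61 (0.116), and ran from -2.06 (0.0187) without Prep-/- M0 replicate 3 to -0.68 (0.461) without Prep-/- M0 replicate 1. In M1 the genotypes differed by 0.01, with a 95% interval of -0.995 to 1.013 on the log2 scale. Ccl5 was called higher in Prep-/- M0 (1.62 ± 0.55, 0.0234), a call that was lost without Prep-/- M0 replicate 1 (0.68, 0.288), Prep+/- M0 replicate 2 (0.0672) or Prep+/- M0 replicate 3 (0.0925).

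With IL-4 and IL-13, Ccl5 was at 0.68 in Prep+/- (edgeR adjusted p = 0.448), with the 3 M2 libraries above all 3 M0 libraries, and it passed in a fit of only these 6 libraries (0.69, 0.0290). It was called lower in Prep-/- (-1.58 ± 0.56, 0.0308). The Prep-/- call was lost without Prep-/- M0 replicate 1 (0.333) or Prep-/- M2 replicate 2 (0.107) or 3 (0.117), and the value was -2.67 without Prep-/- M2 replicate 1. The difference of these changes between genotypes was -2.26 and did not pass (edgeR adjusted p = 0.0835), though it did in 2 of 12 fits with 1 library left out. The gene most like Ccl5 over the 18 libraries was Cfb, which encodes complement factor B, with a Pearson r of 0.996, followed by Lcn2 (0.993) and Saa3 (0.991).

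Ccl6 and Ccl9 changed their pattern with genotype. Ccl6 in Prep+/- BMDMs was at 99.3, 99.8 and 93.7 CPM in M0, 233, 282 and 334 CPM in M1, and 222, 210 and 194 CPM in M2. Ccl6 in Prep-/- BMDMs was at 255, 179 and 230 CPM in M0, 116, 122 and 187 CPM in M1, and 1140, 868 and 800 CPM in M2. The Prep-/- libraries lay above the Prep+/- libraries in M0 and M2 and below them in M1, with no overlap in any state. The summed macrophage markers, of which Lyz2 was the largest in every library, had the same order of genotypes in each state, also without overlap. The granulocyte precursor markers, by their medians, were at 44.8 CPM in Prep-/- against 21.3 CPM in Prep+/- in M0, 41.4 against 80.6 CPM in M1 and 24.0 against 15.6 CPM in M2, with overlap in M2. The part of these differences in the levels of Ccl6 and Ccl9 was not tested. Ccl6 rose with LPS in Prep+/- by 1.54 ± 0.19 (edgeR adjusted p = 4.29e-06) and fell in Prep-/- by 0.64 on the log2 scale (0.00767). The fall is at the edge of the criteria: the groups overlapped, and the fold change was under 1.5 without Prep-/- M0 replicate 1 (-0.53) or Prep-/- M1 replicate 1 (-0.56). The difference of the LPS changes between genotypes was -2.18 ± 0.27 (5.22e-05), and it lay between -2.44 and -2.06 and was called with any 1 of the 12 libraries left out.

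With IL-4 and IL-13, Ccl6 rose by 1.10 ± 0.19 in Prep+/- (edgeR adjusted p = 5.38e-04) and by 2.08 ± 0.19 in Prep-/- (3.40e-07). The difference of 0.98 ± 0.26 was called (0.0288), but the call was lost, with adjusted p-values up to 0.0724, without any 1 of 7 libraries: Prep-/- M0 replicate 2, Prep-/- M2 replicate 1, Prep+/- M0 replicates 2 and 3, and each Prep+/- M2 library. Between genotypes Ccl6 was higher in Prep-/- by 1.18 ± 0.19 in M0 (1.06e-04) and 2.17 ± 0.19 in M2 (4.42e-06), and lower by -0.997 ± 0.19 in M1 (0.00104).

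Ccl9, 5.5 kb from Ccl6, was likewise lower in Prep-/- M1 and higher in Prep-/- M2. Ccl9 in Prep+/- BMDMs was at 1193, 1242 and 1102 CPM in M0, 4174, 5669 and 5260 CPM in M1, and 1646, 1547 and 1775 CPM in M2. Ccl9 in Prep-/- BMDMs was at 1264, 1230 and 1842 CPM in M0, 1240, 1643 and 2265 CPM in M1, and 3342, 3183 and 3401 CPM in M2. M0 overlapped between genotypes, whereas Prep-/- lay below Prep+/- in M1 and above it in M2. Ccl9 rose with LPS by 2.09 ± 0.20 in Prep+/- (edgeR adjusted p = 2.19e-07), and in Prep-/- the change was 0.25 (0.283), with a 95% interval of -0.16 to 0.65. The difference between genotypes was -1.85 ± 0.27 (2.37e-04) and was called with any 1 of the 12 libraries left out. With IL-4 and IL-13 the change was 0.49 in Prep+/- (0.0900), and Ccl9 rose by 1.20 ± 0.19 in Prep-/- (1.19e-04), but the difference of 0.70 did not pass (0.113), except without Prep-/- M0 replicate 3 (0.93, 0.0281). Ccl9 was lower in Prep-/- M1 by -1.55 ± 0.20 (7.47e-05) and higher in Prep-/- M2 by 0.998 ± 0.19 (0.00132). In M0 the difference was 0.29 (0.220). A stretch of up to 195 bases of the Ccl9 transcripts matched transcripts of 1349 other genes at 90% identity or more, so some of its reads may have had other possible places.

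**Figure D3:**
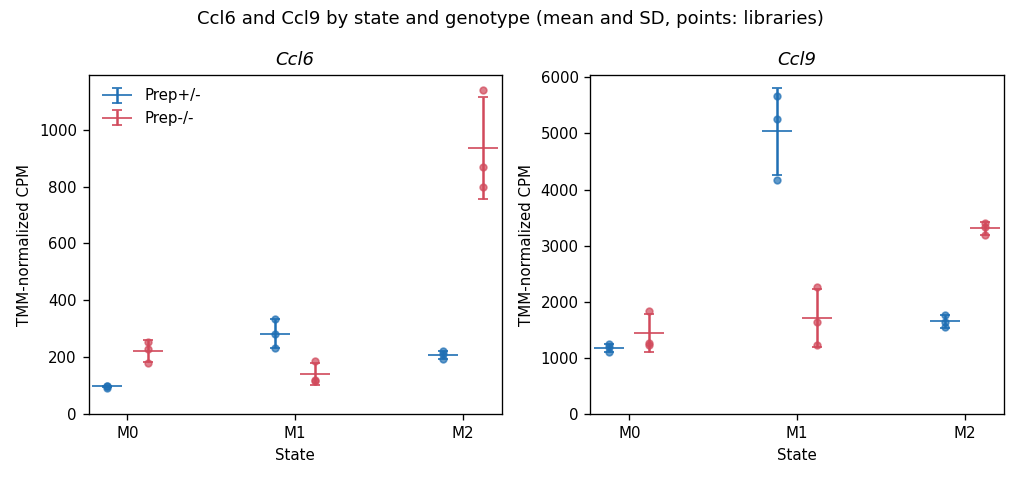
Ccl6 (left) and Ccl9 (right) in normalized CPM by state, in Prep+/- (blue) and Prep-/- (red). Points are libraries, dashes the means and bars the SD of 3 libraries. Ccl9 is at 4174 to 5669 CPM in Prep+/- M1 and 1240 to 2265 CPM in Prep-/- M1, and the order is turned round in M2.

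Ccl22 and Ccl17 are ligands of CCR4, the receptor of Th2 and regulatory T cells. Ccl22 in Prep+/- BMDMs was at 0.0456, 0.158 and 0.160 CPM in M0, 1.18, 4.16 and 0.909 CPM in M1, and 6.52, 6.08 and 35.0 CPM in M2. Ccl22 in Prep-/- BMDMs was at 0.237, 0.0419 and 0.0461 CPM in M0, 0.416, 0.303 and 0.509 CPM in M1, and 7.29, 4.30 and 163 CPM in M2. Replicate 3 was the highest M2 library in both genotypes. The M0 levels rest on 9 counts over the 3 Prep+/- libraries and 7 over the 3 Prep-/- libraries, so the folds against them are rough. Ccl22 rose with IL-4 and IL-13 by 6.93 in Prep+/- (edgeR adjusted p = 0.00520), or 5.58 (0.0261) without Prep+/- M2 replicate 3. In Prep-/- it rose by 9.03 (2.85e-04), or 5.70 (3.64e-04) without Prep-/- M2 replicate 3 and 10.19 without Prep-/- M0 replicate 1. With LPS the change was 4.01 in Prep+/- (0.0824), which passed in DESeq2 (0.00279), and 1.90 in Prep-/- (0.551).

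Between genotypes Ccl22 was at -2.34 in M1 (edgeR adjusted p = 0.256), where the groups did not overlap, and the value passed in a fit of only those 6 libraries (-2.36, 0.0110). It was -1.36 (0.631) without Prep+/- M1 replicate 2, which held 74 of the 111 counts of its group. In M2 it was at 1.88 (0.168) and turned to -1.44 (0.108) without Prep-/- M2 replicate 3, so no direction can be given. The same library held the highest sum of eosinophil markers in its group, 18.5 CPM, most of it Ccr3, against 2.55 and 2.92 CPM. That sum was 26.2 to 32.2 CPM in the Prep+/- M1 libraries. The sum of dendritic cell markers was low, and was highest in replicate 3 of both M2 groups. It was 2.83 CPM against 1.41 and 1.10 CPM in Prep-/- M2, and 2.32 CPM against 1.53 and 0.965 CPM in Prep+/- M2. Prep-/- M2 replicate 3 also held the lowest sum of B cell markers in its group, almost all of it Cd79b, 0.959 CPM against 4.33 and 4.45 CPM. The part of other cells in its chemokine levels was not tested. Ccl17 was listed at 0 counts in all 6 M0 libraries, at 3, 10 and 6 counts in Prep+/- M1, at 6, 5 and 4 in the Prep-/- M1 libraries, 5, 8 and 10 in Prep+/- M2, and 5, 2 and 17 in Prep-/- M2. Against a floor of 3 counts over the M0 group, with the M1 and M2 counts taken as listed, Ccl17 was 8.65-fold higher in Prep+/- M1 and 7.94-fold in Prep+/- M2. The folds were 5.67 and 8.78 in Prep-/- M1 and M2. Replicate 3 held 17 of the 24 counts of Prep-/- M2, and the fold without it was not computed. The M1 and M2 counts of Ccl17 overlapped in both genotypes.

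Ccl24, eotaxin-2, attracts eosinophils through CCR3. It fell with LPS and rose with IL-4 and IL-13, and was higher in Prep-/- M0 and M2. Ccl24 in Prep+/- BMDMs was at 2.69, 0.986 and 1.28 CPM in M0, 0.0538, 0.225 and 0.182 CPM in M1, and 6.78, 8.77 and 8.20 CPM in M2. Ccl24 in Prep-/- BMDMs was at 4.88, 11.4 and 15.3 CPM in M0, 0.624, 0.151 and 0.356 CPM in M1, and 35.4, 28.8 and 37.0 CPM in M2. No group overlapped another state of its genotype, and the genotypes overlapped only in M1, where the levels rest on 8 (Prep+/-) and 22 (Prep-/-) counts a group. The fall with LPS was -3.38 ± 0.68 in Prep+/- (edgeR adjusted p = 4.99e-04) and -4.79 ± 0.49 in Prep-/- (5.71e-07), or -5.40 without Prep-/- M1 replicate 1. The rise with IL-4 and IL-13 was 2.27 ± 0.40 (5.80e-04) and 1.68 ± 0.35 (9.60e-04). Ccl24 was higher in Prep-/- by 2.69 ± 0.40 in M0 (5.09e-05) and 2.09 ± 0.35 in M2 (4.57e-04), or 2.03 without Prep-/- M2 replicate 3. In M1 it was at 1.28 (0.265). The test of the difference between genotypes did not pass for either response, at -1.41 for LPS (0.363) and -0.59 for IL-4 and IL-13 (0.505), with a 95% interval of -1.69 to 0.50 for the latter.

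**Figure D4:**
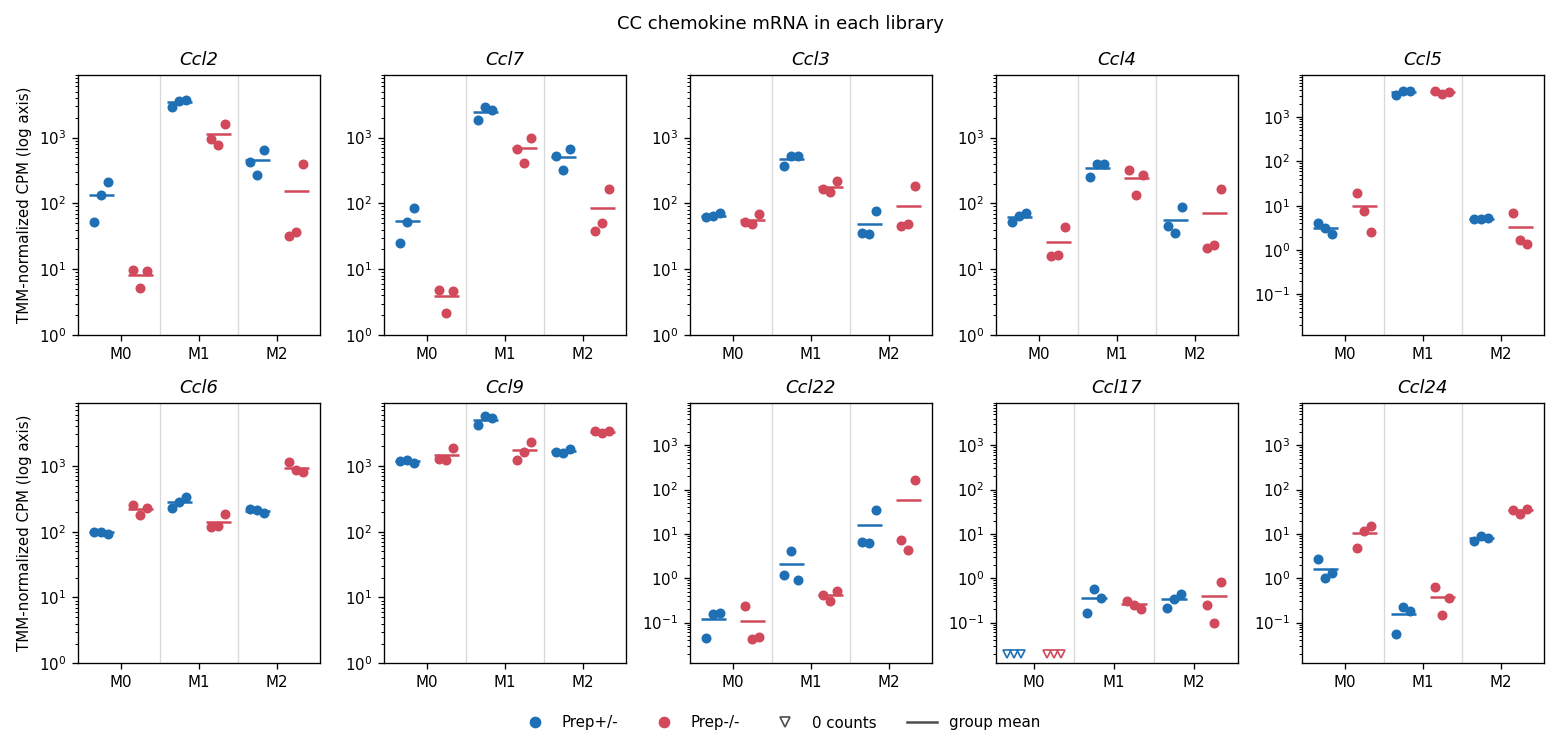
Normalized CPM of each member in the 18 libraries, on a log axis whose range differs between panels, by state and genotype (blue Prep+/-, red Prep-/-). Lines are group means and open triangles mark 0 counts. Prep-/- M2 replicate 3 lies above the other 2 libraries of its group for Ccl2 (399 CPM), Ccl7, Ccl3, Ccl4 and Ccl22 (163 CPM).

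M1 and M2 were also set directly against each other. The classes were chosen on the same Prep+/- M1 and M2 libraries, so the Prep+/- counts of this comparison are a description. In M1 against M2 in Prep+/-, 6 of 9 tested members were called higher and 2 lower, beside 16.6% and 20.6% of all genes tested. The higher members were Ccl2, Ccl3, Ccl4, Ccl5, Ccl7 and Ccl9, and the lower ones Ccl22 and Ccl24. In Prep-/- the comparison called 4 higher and 4 lower, beside 19.2% and 19.3% of all genes, with Ccl6 and Ccl9 among the lower ones. Without Prep-/- M2 replicate 3 it called 5 higher and 4 lower, and the shares of all genes in that fit are not given here. Ccl6 was at 0.44 in Prep+/- (edgeR adjusted p = 0.0604) and fell by 2.72 on the log2 scale in Prep-/- (7.60e-09), and Ccl9 turned from 1.60 (3.36e-06) to -0.95 (6.02e-04). Ccl5 was at 9.48 (8.95e-09) and 10.12 (5.39e-09, or 11.19 without Prep-/- M2 replicate 1), and Ccl24 at -5.65 (5.27e-07) and -6.47 (1.32e-08). Ccl22 was at -2.92 in Prep+/- (0.0376), a call lost without Prep+/- M1 replicate 1 (0.112), Prep+/- M1 replicate 3 (0.117) or Prep+/- M2 replicate 3 (0.262), and at -7.13 in Prep-/- (3.99e-04), or -3.84 (0.00118) without Prep-/- M2 replicate 3. Ccl3 in Prep-/- was at 0.95 (0.0665) and passed at 1.89 without that library. Ccl4 in Prep-/- was called at 1.77 (0.0286), was at 3.41 without that library, and lost its call without Prep-/- M1 replicate 1 or 3 or Prep-/- M2 replicate 1 or 2.

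Counted over members, Prep-/- against Prep+/- called 3 higher and 2 lower in M0, beside 15.4% and 17.2% of all genes tested. In M1 it called 0 higher and 4 lower, beside 12.3% and 10.2% of all genes. At an unadjusted p under 0.05, edgeR had 0 members higher and 5 lower in M1, and DESeq2 called 0 higher and 4 lower. The shares of all genes under these criteria are not given here. In M2 the main edgeR test called 3 higher and 1 lower, beside 6.37% and 9.82% of all genes. Without Prep-/- M2 replicate 3 it called 3 higher and 3 lower, with Ccl2 and Ccl4 added to Ccl7. The shares of all genes in that fit are not given here. The members lower in M1 were Ccl3, Ccl6, Ccl7 and Ccl9. They are among the 7 LPS-induced members of the 9 tested, a class chosen for high values in the same Prep+/- M1 libraries, so nothing is read from their class. The members higher in M2 were Ccl6, Ccl9 and Ccl24. For M0, M1 and M2, the median log2 difference of the 9 tested members was -0.21, -1.41 and 0.90, beside medians of 0.02, 0.04 and 0.03 over all genes, and without Prep-/- M2 replicate 3 the M2 median of the members was -0.25. The test of the difference between genotypes called 2 of 9 members for LPS, beside 21.1% of all genes, and 1 of 9 for IL-4 and IL-13, beside 8.66%. Both shares are near those of all genes.

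**Figure D5:**
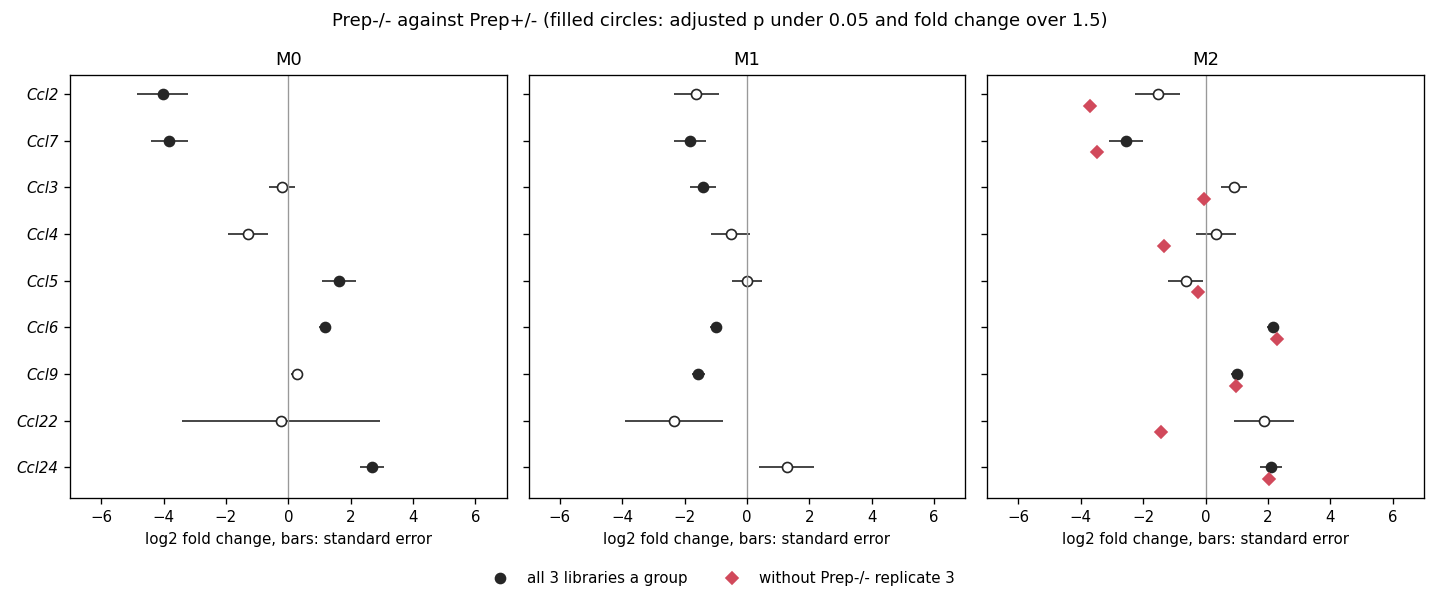
Log2 fold change of Prep-/- against Prep+/- in M0, M1 and M2 for the 9 tested members, with standard errors. Filled circles are called, and diamonds give M2 without Prep-/- replicate 3. Ccl7 lies left of 0 in all 3 states, and Ccl6 lies right of 0 in M0 and M2 (1.18 and 2.17) and left of it in M1 (-0.997).

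Other CC ligands were sparse. Of 11 listed, 6 were in the table and 4 were tested. In M1 against M0, 3 of the 4 were called higher in each genotype, beside 16.7% of all genes in Prep+/- and 20.9% in Prep-/-, and 1 was called lower in Prep-/-, beside 21%. Ccl12, a mouse ligand of CCR2, rose with LPS by 6.59 in Prep+/- and 6.91 in Prep-/- (edgeR adjusted p = 1.49e-09 and 1.20e-09). In M2 it was at 17.7 to 36.5 CPM in Prep+/- and 3.45 to 4.58 CPM in Prep-/-, lower by -2.82 in Prep-/- (4.22e-05), and its response to IL-4 and IL-13 differed between genotypes by -1.97 (0.0301). Ccl8 went the other way, at 1.83 to 2.22 CPM in Prep+/- M2 and 10.5 to 23.9 CPM in Prep-/- M2, with a difference of 3.19 (3.49e-04), and at 6.35 to 9.88 and 18.4 to 90.6 CPM in M1, with a difference of 2.61 (8.93e-04).

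Among receptors of CC chemokines, Ccr1 rose and Ccr2 fell with LPS in both genotypes. Ccr1, the receptor of Ccl6 and Ccl9, rose by 3.61 in Prep+/- (edgeR adjusted p = 8.93e-05) and 3.85 in Prep-/- (6.21e-05), and was lower in Prep-/- M0 (-1.55, 0.0403), where Ccl6 was higher. Ccr2, the receptor of Ccl2 and Ccl7, fell by 2.21 (1.40e-07) and 2.44 (3.76e-08) on the log2 scale. Between genotypes Ccr2 was higher in Prep-/- M0 (1.40, 2.25e-05), where Ccl2 and Ccl7 were lower, and in Prep-/- M1 (1.17, 5.31e-04). With IL-4 and IL-13 the fall of Ccr2 differed between genotypes by -1.80 (0.00105). Ccl9 did not pass between genotypes in M0 (0.29, edgeR adjusted p = 0.220). Any link between receptor and ligand levels was not tested. Ccrl2, an atypical receptor that binds chemerin, was higher in Prep-/- in all 3 states, by 0.93, 1.62 and 1.03 (0.00412, 1.22e-04 and 0.00496).

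Of 20 listed genes of LPS signalling to NF-kappaB and interferon, all tested, 13 were called higher and 1 lower with LPS in Prep+/-, beside 16.7% and 20.9% of all genes, and 9 and 1 in Prep-/-, beside 20.9% and 21%. The difference of the LPS change between genotypes was called in 9 of them, 2 higher and 7 lower, beside 21.1% of all genes in either direction. Those farthest from 0 were Cd14, the LPS co-receptor (-1.78, edgeR adjusted p = 2.82e-04), Irf7, a transcription factor induced by interferon (-1.74, 0.0162), and Ly96, which encodes MD-2 (-1.37, 4.14e-04). Of 11 listed genes of IL-4 and IL-13 signalling, 3 were called higher and 2 lower in M2 against M0 in Prep+/-, beside 6.09% and 6.77% of all genes, and 3 and 4 in Prep-/-, beside 14.7% and 15.5%. Socs1, a feedback inhibitor, Cish, a target of STAT proteins, and Irf4, a transcription factor of IL-4-treated macrophages, rose in both genotypes, by 6.39, 5.79 and 4.66 in Prep+/- (4.63e-09, 1.40e-11 and 3.88e-10) and 5.15, 4.38 and 3.29 in Prep-/- (1.19e-08, 4.69e-11 and 3.13e-09). The difference of these changes was called for Cish (-1.40, 0.00578), Irf4 (-1.37, 0.00855) and Kdm6b (-1.29, 0.00683), where Ccl6 was at 0.98 and Ccl24 at -0.59.

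Likeness over the 18 libraries was high between some neighbours and lower between others. Beside Ccl2 and Ccl7, the member most like Ccl3 was Ccl4 (Pearson r = 0.909). The member most like Ccl9 was Ccl6 (0.673), near the value of Ccl22 with Ccl6 (0.644), which lie on different chromosomes. The most like of all tested genes were Mmp9 for Ccl3 (0.952), Pdpn for Ccl4 (0.965), Lman2 for Ccl6 (0.947), Isca1 for Ccl9 (0.959), Sphk1 for Ccl22 (0.962) and Snx5 for Ccl24 (0.977). Ccl24 and Ccl5 were least alike, at -0.843. These values describe 18 libraries in 6 groups, and carry no test.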

How the data were processed

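Poly(A) RNA from 18 BMDM libraries was sequenced with a stranded mRNA kit. The authors trimmed reads with Trimmomatic (0.36), aligned them to GRCm39 with HISAT2 (2.2.1.0), assembled them with stringtie and deposited raw read counts per gene. The annotation release and the strand setting of the counting are not given in the sources used here.

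The deposited counts of 16314 genes were filtered with filterByExpr over the 6 groups, leaving 12021 genes, and normalized by TMM. One model with a coefficient per group was fitted to all 18 libraries with edgeR (4.0.16, R 4.3.3, limma 3.58.1), and quasi-likelihood F tests were run for 11 comparisons, with Benjamini-Hochberg adjustment over all genes tested. A call needed a fold change over 1.5 with an adjusted p below 0.05. Standard errors were taken from the log2 fold change and its F value. CPM used TMM-scaled library sizes, and RPKM divided CPM by the union exon length. Similar transcripts were sought with blastn (2.17.0), and DESeq2 (1.42.0) was an alternative. The scripts were tested on simulated data.

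All 10 members are named, and from each list of other genes at most the 3 called with the largest change in a comparison. The members and lists were chosen with earlier results of these data known. Replicate numbers were taken as pairs where, in all 3 pairs, the correlation of deviations from the group means was over 0.1. This held for M1 against M0 in Prep-/- (0.201, 0.169 and 0.259) and for the genotypes in M2 (0.249, 0.255 and 0.462). Depth was 19068237 to 22598279 counts per library, and floors from 3 counts cover counting error only. Some receptor results are not reported here.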

Additional observations from a re-analysis of the deposited data

Results flagged for a closer look

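The responses of 2 members differed between genotypes by the test of the difference itself. That test called 2 of 9 tested members for LPS, beside 21.1% of all genes, and 1 of 9 for IL-4 and IL-13, beside 8.66%. Both shares are near those of all genes. For Ccl6 the change with LPS was lower in Prep-/- than in Prep+/- by -2.18 on the log2 scale (edgeR adjusted p = 5.22e-05), and the change with IL-4 and IL-13 was higher by 0.98 (0.0288). For Ccl9 the change with LPS was lower in Prep-/- by -1.85 (2.37e-04). In all 3 Prep+/- M1 libraries both genes lay above every Prep-/- M1 library, and in M2 below every Prep-/- M2 library.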

How the results depend on the processing

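Numbers of members called stayed within 1.5 times of their values except in 3 comparisons. The counts below are given without the share of all genes called under the same setting. Between genotypes in M1, 4 members were called, 1 with glmTreat, 5 with the replicate block in all libraries, 6 of 8 tested with only the libraries compared, with or without the block, and 2 to 4 with 1 library left out, the 2 without Prep-/- M1 replicate 2. For the difference of the LPS change, 2 were called, 4 with the replicate block in all libraries, 5 with only the libraries compared, 5 with the block in those, and 2 to 3 with 1 library left out. For the difference of the IL-4 and IL-13 change, 1 was called, 0 with glmTreat, and 0 to 3 with 1 library left out. In M2 against M0 in Prep+/-, 4 were called, 5 with the block in all libraries and 6 with only the libraries compared. The other calls with 1 library left out ran from 8 to 8 and 6 to 7 for M1 against M0 in Prep+/- and Prep-/-, 4 to 4 and 6 to 8 for M2 against M0, 7 to 8 and 7 to 9 for M1 against M2, 4 to 6 between genotypes in M0 and 4 to 6 in M2.

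Signs turned only in values that had not passed. With 1 library left out, Ccl9 ran from -0.0489 to 0.43 in M1 against M0 in Prep-/-, and Ccl4 from -0.67 to 0.0854 in M2 against M0 in Prep+/-. In M2 against M0 in Prep-/-, Ccl3 ran from -0.28 to 0.99 and Ccl4 from -0.23 to 2.09. Between genotypes, Ccl22 ran from -1.39 to 0.17 in M0 and from -1.44 to 3.20 in M2, Ccl5 from -0.0834 to 0.0767 in M1, Ccl3 from -0.0529 to 1.39 in M2 and Ccl4 from -1.32 to 0.82 in M2. In the difference of the IL-4 and IL-13 change, Ccl4 ran from -0.0381 to 2.28 and Ccl22 from -1.21 to 3.42. The negative values of Ccl3, Ccl4 and Ccl22 in Prep-/- M2 came without Prep-/- M2 replicate 3. Ccl5 between genotypes in M1 was at -0.0228 with DESeq2, -0.0228 with its size factors and -0.00878 with only the libraries compared. The causes were not tested.

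With the replicate block, Ccl5 between genotypes in M1 was at -0.0303 in all libraries and -0.00831 in those compared, and Ccl4 between genotypes in M2 at -0.23 in those compared. Where the numbers were taken as pairs, the block changed no call in M1 against M0 in Prep-/-. Between genotypes in M2 it added Ccl2 (-2.04 in all libraries, -2.45 in those compared) and Ccl3 (0.70 in those compared). The other comparisons did not meet the rule for pairs, which does not show that their libraries share nothing beyond a number. There the block over all libraries added Ccl22 in M1 against M0 and Ccl2 in M2 against M0 in Prep+/-, Ccl3 in M1 against M2 in Prep-/-, Ccl4 in M0 and Ccl2 in M1 between genotypes, and Ccl3 and Ccl7 in the difference of the LPS change, and lost Ccl22 in M1 against M2 in Prep+/-. Depth limits Ccl17, Ccl22 in M0 and Ccl24 in M1, where group sums were at most 24 counts.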
